A study of Mus musculus with 20 samples.

Results

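Igfbp6, Afg3l1, Csf1r, Gpc3, Corin, Ephx2, Tor1b, Avl9, and Il16 are 9 named target genes of Nsun6, taken from the 55401 genes of the count table by their symbols. Each carries a 5-methylcytosine (m5C) site that the study's site table marks as Nsun6-dependent, which means methylated in wild-type (WT) but not in Nsun6-knockout (KO) RNA. In all, 75 genes have such a site in at least 1 organ. RNA of 5 organs (heart, kidney, spleen, liver, and small intestine) of 8-week-old female mice was sequenced in 20 libraries, 2 WT and 2 KO for each organ. The KO strain was made in C57BL/6J eggs with CRISPR/Cas9, which removed exons 3 and 4 of Nsun6, and the WT animals carried the intact gene. The libraries held between 15897446 and 44508197 counts (median 28513950). The questions were how much of each target RNA the 5 organs hold and whether its level differs without the enzyme.

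m5C is a methyl group on carbon 5 of cytosine, found in tRNA, rRNA, and mRNA. NSUN6 is an RNA methyltransferase that was first known for methylating tRNA and also methylates cytosines in mRNA that begin the motif CTCCA, usually within a stem-loop. Such marks have been linked to RNA export, translation, and stability, which is why the steady-state level of target RNAs was measured.

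The site of each target was read from the reference transcripts of GENCODE for GRCm38, since the sequence at the modified base shows which targets hold the motif. Each line gives 21 bases in the 5′ to 3′ direction of the RNA, written with T, with the methylated C in capitals, and with all 5 bases of CTCCA in capitals where the motif begins at that C.
Igfbp6: ttgccagtgtCTCCAgatggt
Gpc3: tcagtttaacCTCCAtgagct
Ephx2: acaggaagtcCTCCAaagcct
Afg3l1: agctcttcgaCcgcatgtgta
Corin: agaaggagaaCagggatgcct
Tor1b: cagagctactCagggactctc
Avl9: gtgattctggCcgatatttgg
Il16: agctgctgctCaggtttggac
The sequence at the Csf1r site is not shown, but it holds the motif. The motif thus began at the site in 4 of the 9 targets (44.4%), against 37.7% of the 69 Nsun6-dependent sites of other genes and 0.7% of the 537 sites without that mark that lie on a transcript. Of all cytosines in the 9 target transcripts, between 0.69% (Afg3l1) and 1.27% (Il16) begin CTCCA on the sense strand. The 5 targets without the motif at the site (Afg3l1, Corin, Tor1b, Avl9, and Il16) were each marked in 1 organ. Of the 4 with the motif, Gpc3 was marked in 1 organ, Igfbp6 in 2, Ephx2 in 3, and Csf1r in 5.

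**Figure D1:**
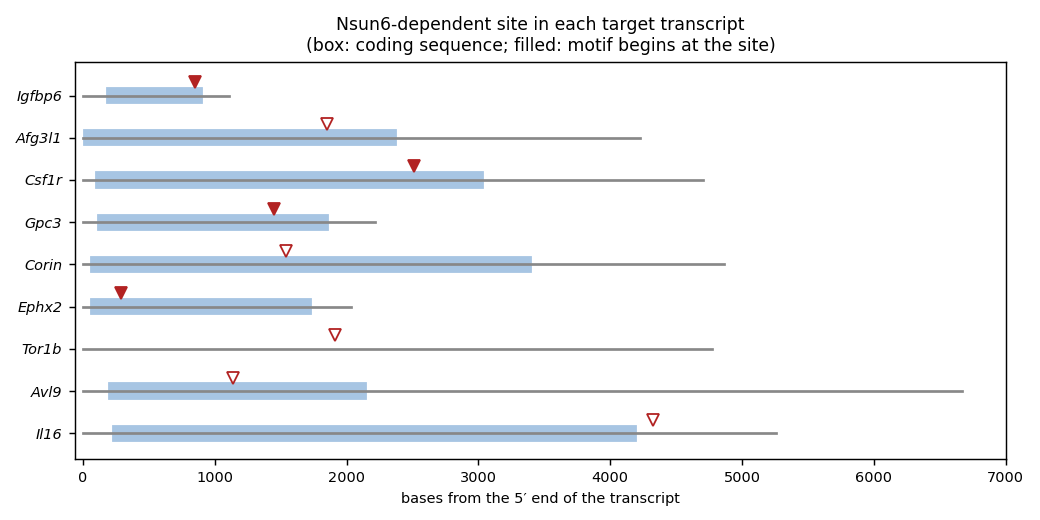
Position of the Nsun6-dependent site (triangle) along 1 annotated transcript of each target gene, in bases from the 5′ end; boxes are coding sequence, and filled triangles mark sites at which CTCCA begins. In 7 of 9 transcripts the site lies in the coding sequence, the Il16 site lies in the 3′ UTR, and the Tor1b transcript drawn is non-coding.

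Of the targets with the motif, Igfbp6 (ENSMUSG00000023046, chromosome 15, 102144362 to 102149511, plus strand) has its site at 102149253, in codon 223 and in exon 4 of 4. That of Csf1r (ENSMUSG00000024621, chromosome 18, 61100598 to 61132149, plus strand) is at 61129085, in codon 804 and in exon 17 of 21. Gpc3 (ENSMUSG00000055653, chromosome X, 52272426 to 52613950, minus strand) has its site at 52365796, in codon 446 and in exon 6 of 8. Ephx2 (ENSMUSG00000022040, chromosome 14, 66084374 to 66124500, minus strand) has its site near the start of the coding sequence, at 66110240, in codon 74 and in exon 3 of 19. The Igfbp6 site lies 49 bases and the Gpc3 site 404 bases before the last base of the stop codon.

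Of the targets without the motif, Afg3l1 (ENSMUSG00000031967, chromosome 8, 123477903 to 123503916, plus strand) has its site at 123501322, in codon 615 and in exon 15 of 17. The Corin site (ENSMUSG00000005220, chromosome 5, 72300025 to 72504473, minus strand) is at 72353951, in codon 494 and in exon 10 of 22. Avl9 (ENSMUSG00000029787, chromosome 6, 56714899 to 56761912, plus strand) has its site at 56736700, in codon 314 and in exon 10 of 16. The 2 others lie outside the coding sequence. The Tor1b site (ENSMUSG00000026848, chromosome 2, 30952959 to 30959015, plus strand) is at 30955415, in exon 2 of 4 of a non-coding transcript and in an intron of a coding one. The Il16 site (ENSMUSG00000001741, chromosome 7, 83642825 to 83745726, minus strand) is at 83643763, in the 3′ UTR of exon 19 of 19, 126 bases past the stop codon.

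By organ, the small intestine was marked for Igfbp6, Csf1r, Gpc3, Ephx2, and Il16, and the liver for Csf1r and Ephx2. The spleen was marked for Afg3l1, Csf1r, Tor1b, and Avl9, the kidney for Csf1r and Ephx2, and the heart for Igfbp6, Csf1r, and Corin. Afg3l1 was listed as not dependent in the other 4 organs, and elsewhere an organ without a mark had no entry for the site. A site not listed for an organ is not evidence that the RNA is unmethylated there.

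The organ labels were first compared with marker genes. Summed over 8 hepatocyte genes, the liver libraries held 194000 to 377000 CPM (counts scaled to library size, with TMM normalization over all 20 libraries), 7 tubule genes gave 26500 to 45400 CPM in the kidney, and 7 cardiomyocyte genes gave 62500 to 93800 CPM in the heart. The 7 B-cell genes gave 2450 to 3470 CPM in the spleen. Spleen WT replicate 2 also held liver transcripts. Alb, which encodes serum albumin, was at 3.68 and 2680 CPM in spleen WT replicates 1 and 2 and at 93.7 and 136 CPM in KO replicates 1 and 2. The 7 tubule genes summed to 50.6 CPM in spleen KO replicate 1. Their sum was 3.14 and 2.4 CPM in spleen WT and 3.77 CPM in spleen KO replicate 2. In liver WT replicate 1 the 7 cardiomyocyte genes summed to 29 CPM. That sum was 5.3 CPM in liver WT replicate 2 and 1.65 and 1.62 CPM in liver KO. Among the small intestine libraries, replicate 1 of both genotypes expressed genes of the distal and replicate 2 those of the proximal intestine. Fabp6, the ileal bile acid binding protein, was at 6810 and 0.238 CPM in WT replicates 1 and 2 and at 6260 and 0.412 CPM in KO replicates 1 and 2. The 7 cardiomyocyte genes summed to 442 CPM in small intestine KO replicate 1, against 9.33 and 20.4 CPM in WT replicates 1 and 2 and 30.1 CPM in KO replicate 2. In the heart, the count columns of replicate 2 of both genotypes carry a suffix whose meaning the sources used here do not give. They held 36090637 (WT) and 41763236 (KO) counts, against 17959542 and 15897446 counts in replicate 1.

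Nsun6 itself (ENSMUSG00000026707) was counted in both genotypes. Small intestine libraries had it at 9.82 and 6.19 CPM in WT and at 9.68 and 5.24 CPM in KO. In the liver it was at 7.23 and 4.83 CPM in WT and 4.03 and 4.56 CPM in KO, and in the spleen at 6.07 and 4.36 CPM in WT and 4.03 and 6.64 CPM in KO. In the kidney it was at 5.44 and 5.84 CPM in WT and 3.91 and 3.32 CPM in KO, and in the heart at 7.03 and 6.65 CPM in WT and 6 and 5.5 CPM in KO. KO was lower without overlap in the heart, kidney, and liver, and the genotypes overlapped in the spleen and small intestine. With edgeR's quasi-likelihood test, its log2 fold change over all organs was -0.29 (SE 0.17, adjusted p = 1). Counts cover all exons together, so the level of Nsun6 does not check the deletion of exons 3 and 4.

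Between organs, Corin was largely restricted to the heart and Il16 to the spleen, whereas Afg3l1, Tor1b, and Avl9 were expressed in all 5 organs at more even levels. Levels are given first per kilobase of exon (RPKM) in the organ with the highest WT mean, with the SD of 2 libraries, since CPM does not compare genes. The order of genes rests on TMM as well, and by WT mean TPM Csf1r in the spleen (90.1 TPM) lay above Igfbp6 in the heart (81.7 TPM). Ephx2 was the most abundant, with 377 ± 13.6 RPKM in the liver (SD, n = 2), followed by Corin with 37.3 ± 0.7 in the heart and Igfbp6 with 32.5 ± 0.164 in the heart. Csf1r reached 22.8 ± 0.766 RPKM in the spleen, Tor1b 15.9 ± 3.51 in the liver, and Il16 12.6 ± 0.554 in the spleen. Gpc3 reached 10.7 ± 7.7 RPKM in the kidney, Afg3l1 10.5 ± 1.14 in the heart, and Avl9 10.2 ± 1.35 in the small intestine. For comparison, Nsun6 had between 1.04 RPKM (spleen) and 1.6 RPKM (small intestine).

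Neighbours in the order of the WT means were compared by edgeR on the 10 WT libraries, and a pair was called at a Benjamini-Hochberg adjusted p under 0.1 over all genes and a fold over 2. Of 36 neighbouring pairs, 10 were called, with the higher organ's libraries above the lower organ's in each. Over all genes, the share called ranged from 24.6% (liver against kidney) to 44.2% (small intestine against heart) in the 10 pairs of organs, so calls between organs were common. Leaving out 1 WT library at a time ended the call in at least 1 fit for 7 of the 10 pairs, named below with the libraries, and never for the other 3 (Corin, heart over kidney; Il16, spleen over small intestine; Csf1r, kidney over small intestine). The TMM factors were 0.605 to 0.77 in the liver and 1.46 to 1.53 in the spleen, so the order of organs rests on this scaling, and limma on TPM placed 11 of the 36 pairs in the other order. For Tor1b even the highest and the lowest organ, the liver and the kidney, were not called apart (log2 ratio 1.02, SE 0.48, adjusted p = 0.195 by edgeR).

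**Figure D2:**
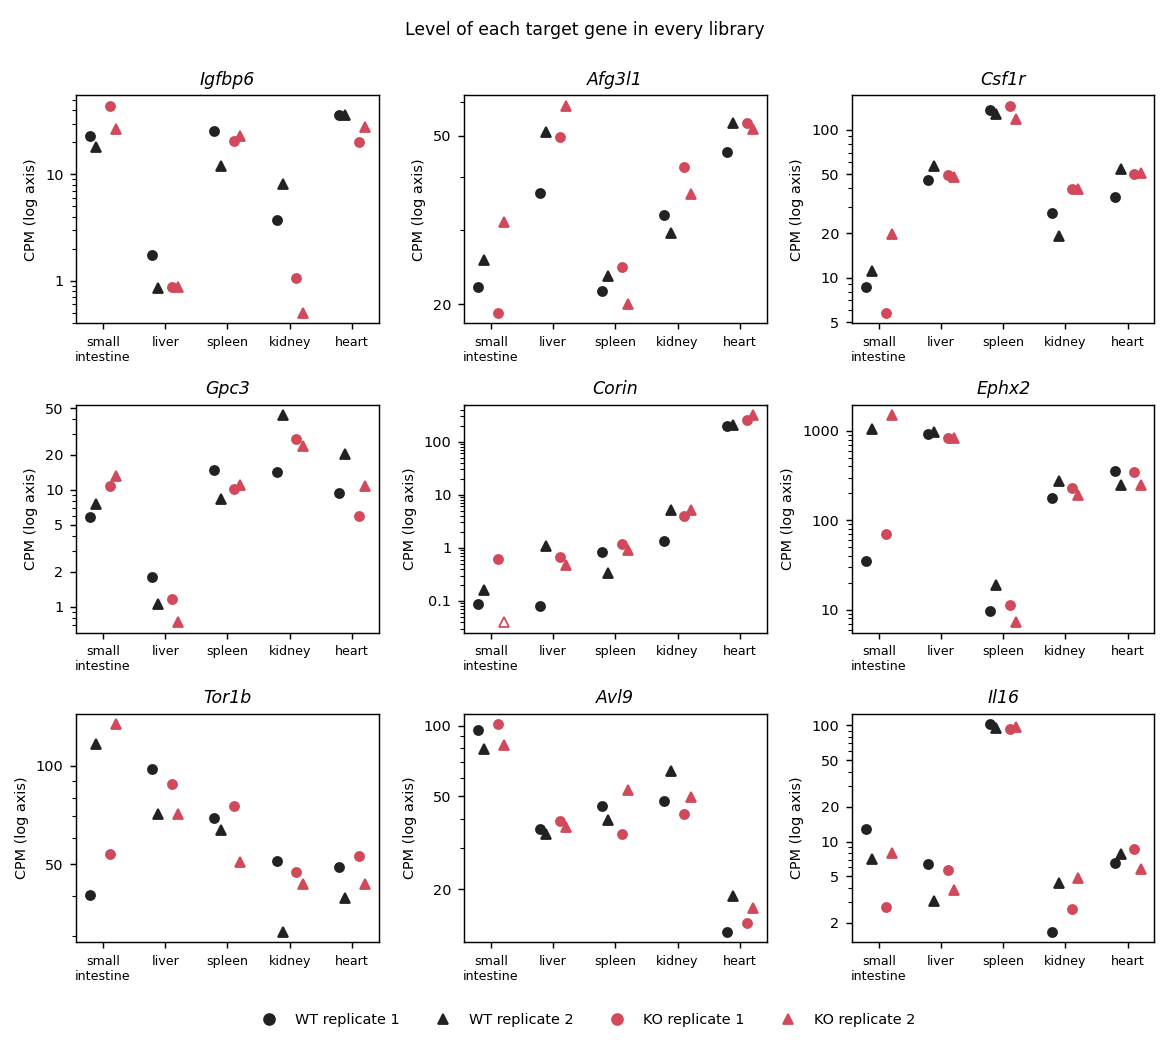
Normalized level of each target gene (CPM, log axis) in every library, by organ; circles are replicate 1 and triangles replicate 2, black is WT and red is KO, and the open triangle stands for 0 counts of Corin. Corin stands apart in the heart, Il16 and Csf1r in the spleen, and the small intestine replicates of Ephx2 lie far apart in both genotypes.

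Corin, a membrane protease that cleaves the precursor of atrial natriuretic peptide, had the most restricted pattern. In the heart it was at 199 and 204 CPM in WT and at 255 and 315 CPM in KO. In the kidney, the next organ, it was at 1.33 and 5.17 CPM in WT and at 4.01 and 5.07 CPM in KO. The heart exceeded the kidney 60.7-fold in WT, a log2 ratio of 5.92 (95% interval 3.57 to 8.27, adjusted p = 0.00503 by edgeR), a pair in which 27.6% of all genes were called. The log2 ratio was 5.24 without WT kidney replicate 1 and 7.23 without WT kidney replicate 2. The order below was kidney, spleen, liver, and small intestine. The kidney exceeded the spleen 5.59-fold in WT (adjusted p = 0.0684, 40.7% of all genes called), and neighbours among the last 3 were not called. The call of kidney over spleen was lost without WT kidney replicate 2, either WT spleen library, or either WT heart library (log2 ratio 1.2 to 3.28 over all 10 left out in turn, against 2.48, and adjusted p of 0.105 to 0.405 by edgeR where lost). In small intestine Corin had 3 and 4 counts in WT and 17 and 0 counts in KO. The 0 of KO replicate 2 allows up to 3 counts, or 0.124 CPM, and Corin was not tested there. The heart also held the RNA of the natriuretic peptides. Nppa, which encodes that peptide, had a WT mean of 350 RPKM in the heart, and Nppb, its relative, had 477 RPKM.

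Il16 encodes a precursor that caspase 3 cleaves to a cytokine binding CD4. In the spleen it was at 102 and 95.8 CPM in WT and at 94.2 and 97.2 CPM in KO, a narrow range. In the small intestine, the only organ marked for Il16, it was at 12.7 and 7.02 CPM in WT and at 2.72 and 7.92 CPM in KO. The spleen exceeded the small intestine 9.96-fold in WT (log2 ratio 3.32, 95% interval 2.01 to 4.62, adjusted p = 0.004 by edgeR, 35.5% of all genes called). The small intestine, heart, liver, and kidney followed, and neighbours among these were not called. Cd4, its receptor, was also highest in the spleen, with a WT mean of 12.5 RPKM against 1.25 RPKM in the small intestine. Of the counted bases of Il16, 15.3% lie in exons of Stard5 on the opposite strand, and whether the counts used strand is not certain.

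Csf1r is the receptor for Csf1 and Il34 and is required by macrophages. In the spleen it was at 135 and 128 CPM in WT and at 145 and 118 CPM in KO, against 45.5 and 57.1 CPM in WT liver and 49.5 and 47.9 CPM in KO liver. The spleen exceeded the liver 2.51-fold in WT (log2 ratio 1.33, 95% interval 0.57 to 2.08, adjusted p = 0.0152 by edgeR, 43.3% of all genes called), a call lost without WT liver replicate 1 (log2 ratio 1.12, adjusted p = 0.142). The liver was not called against the heart (34.8 and 54.1 CPM in WT), and the kidney (27.5 and 19.1 CPM in WT) exceeded the small intestine 2.44-fold (adjusted p = 0.0213, 35.7% of all genes called). The macrophage marker Cd68 was among the 3 of 23159 genes most similar to Csf1r over all 20 libraries, which share the differences between organs (Pearson r = 0.937 of log2 CPM, with Zranb3 at 0.949 and Pla2g15 at 0.937). Of the ligands, Csf1 was highest in the spleen and heart (WT means 7.21 and 6.59 RPKM), and Il34 had at most 2.79 RPKM. The exons of Csf1r share 15.1% of their bases with Hmgxb3 on the opposite strand.

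Ephx2 encodes soluble epoxide hydrolase, which turns the epoxides that Cyp2c and Cyp2j enzymes make from arachidonic acid into diols. In the liver it was at 913 and 961 CPM in WT and at 837 and 827 CPM in KO. In the heart it was at 356 and 251 CPM in WT and at 349 and 249 CPM in KO, and in the kidney at 176 and 278 CPM in WT and at 231 and 191 CPM in KO. The spleen had the lowest levels, at 9.66 and 19 CPM in WT and at 11.4 and 7.25 CPM in KO. The value of 19 CPM is that of WT replicate 2, the spleen library with liver transcripts, and their part in it was not tested. The kidney exceeded the spleen 16.6-fold in WT (log2 ratio 4.05, adjusted p = 0.0361 by edgeR), and no other neighbours in the order of liver, small intestine, heart, kidney, and spleen were called. The call was lost without WT kidney replicate 2 or either WT spleen library (log2 ratio 3.63 to 4.6 over all left out in turn, adjusted p of 0.105 to 0.164 by edgeR where lost). In this order the heart, where no site was listed, stood above the kidney, where the site was marked.

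In the small intestine, Ephx2 differed more between replicates than between genotypes. It was at 34.8 and 1040 CPM in WT replicates 1 and 2, and at 71.2 and 1500 CPM in KO replicates 1 and 2. Replicate 2 was higher by 4.9 in WT and by 4.39 in KO on the log2(CPM + 0.1) scale. Tor1b was higher in replicate 2 by 1.53 in WT and 1.32 in KO on the same scale, whereas Gpc3 was higher by only 0.36 in WT and 0.26 in KO. Of the genes of proximal enterocytes, Lct, which encodes lactase, was higher in replicate 2 by 12.37 in WT and 12.91 in KO, and Fabp1 by 9.01 in WT and 5.68 in KO. For Slc10a2, the ileal bile acid transporter, the difference was -9.09 in WT and -8.92 in KO. With 1 library each, these differences have no replicate check, and the share of each intestinal segment in the tissue was not measured.

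**Figure D3:**
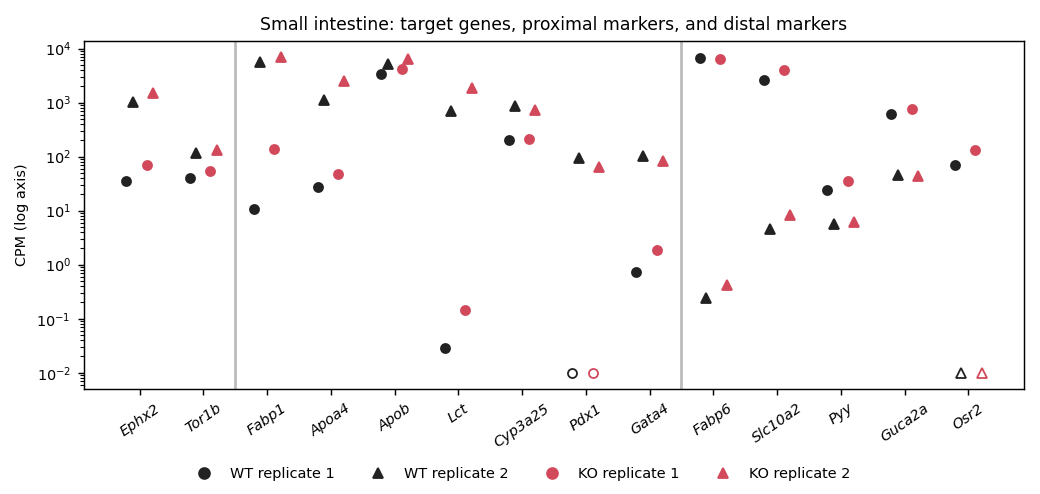
CPM (log axis) of Ephx2 and Tor1b, of 7 genes of the proximal and of 5 genes of the distal intestine in the 4 small intestine libraries; circles are replicate 1 and triangles replicate 2, black is WT and red is KO, and open symbols stand for 0 counts. Ephx2 is higher in replicate 2 of both genotypes, as are the proximal genes, and the distal genes are lower there.

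Igfbp6 encodes a secreted protein that binds insulin-like growth factors, Igf2 above all. In the heart it was at 36 and 36.3 CPM in WT, in the small intestine at 23.1 and 18.1 CPM, and in the spleen at 25.7 and 11.9 CPM. Neighbours among these 3 organs were not called, although the WT heart and small intestine libraries did not overlap (1.77-fold, log2 ratio 0.83, 95% interval -0.38 to 2.03). The WT spleen exceeded the kidney 3.06-fold (adjusted p = 0.0481 by edgeR), and the kidney exceeded the liver 4.59-fold (adjusted p = 0.0287). The first call was lost without replicate 1 of WT spleen or of WT kidney (log2 ratio 0.96 to 2.26 over all left out in turn, against 1.62, and adjusted p of 0.153 to 0.326 by edgeR where lost). The second was lost without replicate 2 of WT liver or of WT kidney (1.5 to 2.8, against 2.2, and adjusted p of 0.128 to 0.201 where lost). In the liver it was at 1.74 and 0.849 CPM in WT and at 0.873 and 0.883 CPM in KO. The liver instead held Igfbp4, Igfbp2, and Igfbp1, at WT means of 265, 238, and 46.3 RPKM, and Igf1 at 161 RPKM. Igf2, the main ligand, had a WT mean of at most 0.077 RPKM in any organ.

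Gpc3, a heparan sulfate proteoglycan of the cell surface that binds hedgehog ligands, varied within organs. It was at 14.2 and 43.5 CPM in WT kidney, at 9.39 and 20.3 CPM in WT heart, and at 14.8 and 8.36 CPM in WT spleen. In the small intestine, its marked organ, it was at 5.87 and 7.54 CPM in WT, and neighbours among these 4 organs were not called. The small intestine exceeded the liver (1.78 and 1.06 CPM in WT) 4.62-fold (adjusted p = 0.0368 by edgeR, 35.9% of all genes called), a call lost without either WT liver library or WT small intestine replicate 2 (log2 ratio 1.91 to 2.67 over all left out in turn, adjusted p of 0.102 to 0.206 where lost). Among its relatives, Gpc4 was highest in the kidney (WT mean 24.2 RPKM) and Gpc1 in the heart (36.8 RPKM).

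Afg3l1, Tor1b, and Avl9 each had a site marked in the spleen and in no other organ, and on the RPKM scale the spleen was the top organ for none of them. On the TPM scale, which does not use TMM, the WT mean of Tor1b was highest in the spleen, at 49.4 TPM, against 34.4 TPM in the small intestine and 28.3 TPM in the liver. Afg3l1, a subunit of the m-AAA protease of the mitochondrial inner membrane, ranged from 21.5 and 23.4 CPM in WT spleen to 45.9 and 53.6 CPM in WT heart. On TMM scaling the heart, its highest organ, exceeded the spleen, its lowest, 2.25-fold (adjusted p = 0.0155 by edgeR, 42.1% of all genes called), and none of the 4 neighbouring pairs was called. By WT mean TPM the heart was at 26.6 TPM and the spleen at 18.7 TPM, which is under 2-fold. The small intestine was the lowest on that scale, at 12.3 TPM. The 3 genes most similar to Afg3l1 over 20 libraries were Got2 (Pearson r = 0.96), Lonp1 (0.951), and Lmf1 (0.95). Of these, Got2 and Lonp1 also encode mitochondrial proteins.

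Tor1b, a torsin ATPase of the endoplasmic reticulum and nuclear envelope, ranged from 31 CPM (WT kidney replicate 2) to 134 CPM (KO small intestine replicate 2). Avl9, a protein of the late secretory pathway, was at 96 and 79.6 CPM in WT small intestine, at 45.2 and 39.7 CPM in WT spleen, and at 13.2 and 18.7 CPM in WT heart. Of its neighbouring pairs only liver over heart was called, at 2.23-fold (adjusted p = 0.0198 by edgeR, 35.7% of all genes called). That call was lost without replicate 1 of WT liver or of WT heart (log2 ratio 0.88 to 1.52 over all left out in turn, against 1.16, and adjusted p of 0.116 to 0.17 by edgeR where lost). The fold also rests on TMM scaling. By WT mean TPM the liver was at 7.22 TPM and the heart at 4.77 TPM, which is under 2-fold.

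For KO against WT, each organ was fitted alone with edgeR, and a gene was called at an adjusted p under 0.1 over all genes tested and a fold over 2. All 9 targets passed the filter on low counts in every organ except Corin in the small intestine, which left 44 tests. None was called. Over all genes, 0% were called in the heart, 0% in the kidney, 0.223% in the spleen, 0.0509% in the liver, and 0% in the small intestine. At an unadjusted p under 0.05 there was 1 of the 44, Igfbp6 in the kidney, where 0.638% of all genes passed that level. The share of all genes at that level was 0.703% in the heart, 5.14% in the spleen, 4.7% in the liver, and 2.39% in the small intestine. DESeq2 called none of the targets either, with 1 of 44 at an unadjusted p under 0.05. The shares of all genes above are those of edgeR, so the DESeq2 counts have no share beside them.

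The log2 fold change was above 0 in 24 tests, below 0 in 19, and 0 in 1, with a median of 0.03. Its size had a median of 0.18 over the 44 tests. The corresponding medians over all genes tested were 0.15 in the heart, 0.24 in the kidney, 0.19 in the spleen, 0.21 in the liver, and 0.3 in the small intestine. In the 16 tests of a target in an organ where its site was marked, the median log2 fold change was 0.06 and the median size 0.25. In the other 28 these were 0.01 and 0.15. The 2 sets differ in their organs, so these medians do not compare marked with unmarked targets. Of the 8 tests in the small intestine, where the median size over all genes was largest, 5 were among the 16. Csf1r was among them in all 5 organs. Targets whose 4 libraries did not overlap between genotypes numbered 2 of 8 in the small intestine, against 25.2% of all genes. They were 2 of 9 in the liver (33.3% of all genes), 1 of 9 in the spleen (31.3%), 4 of 9 in the kidney (21.5%), and 2 of 9 in the heart (17.2%).

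**Figure D4:**
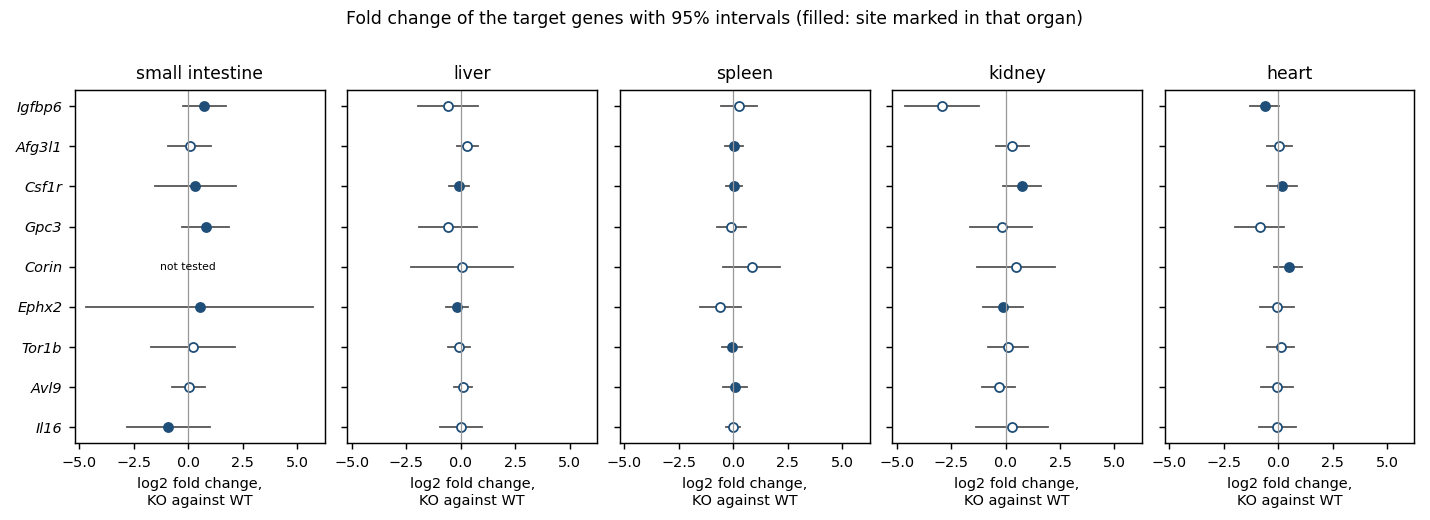
log2 fold change of each target, KO against WT, in each organ with its 95% interval from edgeR; filled points mark organs in which the Nsun6-dependent site was listed, and Corin was not tested in the small intestine. All intervals include 0 except that of Igfbp6 in the kidney (-4.64 to -1.22), and the interval of Ephx2 in the small intestine (-4.69 to 5.74) is the widest.

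How closely the tests bounded the change differed by organ. In 19 of the 44 tests the 95% interval lay within a 2-fold change in either direction. These were 6 of 9 in the liver, 6 of 9 in the spleen, 6 of 9 in the heart, 1 of 8 in the small intestine, and 0 of 9 in the kidney. The biological coefficient of variation was 0.238 in the liver, 0.31 in the spleen, and 0.322 in the heart, and 0.602 in the small intestine and 0.457 in the kidney. The small intestine values come from a fit that does not match replicates by gut segment, which the replicate number followed in both genotypes. In the spleen, Il16 had a log2 fold change of -0.01 (95% interval -0.35 to 0.33) and Csf1r one of 0.04 (-0.33 to 0.4). Afg3l1 in the spleen, its marked organ, had 0.02 (-0.4 to 0.45), Tor1b had -0.04 (-0.51 to 0.42), and Avl9 had 0.09 (-0.46 to 0.64). Ephx2 in the liver, also marked, had -0.17 (-0.68 to 0.33), and KO was lower without overlap.

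Igfbp6 in the kidney, where its site was not listed, was the furthest from 0. It had 130 and 194 counts in WT and 30 and 14 counts in KO, which is 3.74 and 8.03 CPM against 1.06 and 0.499 CPM. The genotypes did not overlap. The log2 fold change was -2.93 (SE 0.68, 95% interval -4.64 to -1.22), with an unadjusted p of 0.00644 and an adjusted p of 1 by edgeR. It was larger in size than that of 99.9% of the genes tested in the kidney. The adjusted p was 0.429 with DESeq2. Without WT kidney replicate 1 it was 0.000466 (log2 fold change -3.36), in a fit that called 16.1% of all genes. Without WT kidney replicate 2 it was 0.0685 (-2.28), in a fit that called 2.37% of all genes. In these fits the lone WT library is assumed to vary like the others. Csf1r was also called without WT kidney replicate 1 (log2 fold change 1.06, adjusted p = 0.00671) and Corin without WT kidney replicate 2 (1.75, adjusted p = 0.0846).

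In the heart, where the site of Igfbp6 was marked, the RNA was at 36 and 36.3 CPM in WT and at 19.9 and 27.8 CPM in KO. The groups did not overlap, and the log2 fold change was -0.61 (95% interval -1.27 to 0.04, adjusted p = 1 by edgeR). In the small intestine, also marked, it was at 23.1 and 18.1 CPM in WT and at 44.1 and 26.6 CPM in KO, again without overlap but in the other direction (log2 fold change 0.73, 95% interval -0.25 to 1.72, adjusted p = 1). In the spleen it was at 20.5 and 23 CPM in KO, within the range of WT. The difference of the KO effect between organs had an unadjusted p of 0.00174 and an adjusted p of 1 in edgeR's interaction test, which called 0% of 23159 genes. Without the filter on low counts, on 36620 genes, the adjusted p was 0.000294 in edgeR (2.66% of all genes called) and 0.00966 in DESeq2 (0.295% called).

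Markers of mesothelium, the cell layer that covers the organs, were compared beside Igfbp6. One of them, Upk3b, was among the 3 genes most similar to Igfbp6 over all 20 libraries (Pearson r = 0.939), with Muc16 at 0.941 and Ankrd35 at 0.934. In the heart all 6 of 6 markers had values below 0 (median log2 fold change -1.5), and they summed to 61.9 and 68.2 CPM in WT and 11.1 and 36.9 CPM in KO. None was called, and Msln had the lowest unadjusted p of 0.00475 (adjusted p = 1 by edgeR). Msln was at 15.2 and 13.3 CPM in WT heart and at 1.5 and 4.74 CPM in KO heart. Values below 0 in the heart were not particular to the mesothelial list. All 5 atrial genes (median -2.09) and all 4 lung genes tested (-1.04) had them too. So had all 7 B-cell genes (-2.69) and all 6 T-cell genes tested (-2.37), both lists at low levels. Macrophage and cardiomyocyte genes had medians above 0 (0.06 and 0.07). Msln in the small intestine was at 9.59 and 10.1 CPM in WT and at 23.6 and 23.7 CPM in KO, and Upk3b at 19.2 and 15.7 CPM in WT and at 43.6 and 32.2 CPM in KO. Lrrn4 (log2 fold change 0.68) and Wt1 (0.47) had values above 0 there as well, and Upk1b (-0.12) and Krt19 (-0.23) had values below 0. The median of the 6 was 0.58, and their sum was 1120 and 546 CPM in WT and 1150 and 402 CPM in KO, most of it Krt19, which is also an epithelial keratin.

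In the kidney 5 of the 6 mesothelial markers were tested, with a median log2 fold change of -0.66, and 3 were lower and 2 higher in KO. Their sum was 19.9 and 31.7 CPM in WT and 22.3 and 20.9 CPM in KO. Msln was at 3.2 and 1.57 CPM in WT kidney and at 0.704 and 1.36 CPM in KO kidney, and Wt1, which podocytes also express, was the most abundant in WT replicate 1 at 9.16 CPM. In the spleen their sum was 73.7 and 33.6 CPM in WT and 53.9 and 71.7 CPM in KO, and WT replicate 2 was the lowest library for Igfbp6 too. Of the 5 adipocyte markers, all 4 tested in the kidney had log2 fold changes below 0 (median -1.65), with Cidec at 3.46 and 3.89 CPM in WT and at 1.73 and 0.214 CPM in KO, and none was called. Their sum was 131 and 265 CPM in WT kidney and 141 and 166 CPM in KO. The part of any of these lists in the Igfbp6 values was not tested. In bulk tissue, fewer cells of a type and less RNA per cell cannot be told apart.

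**Figure D5:**
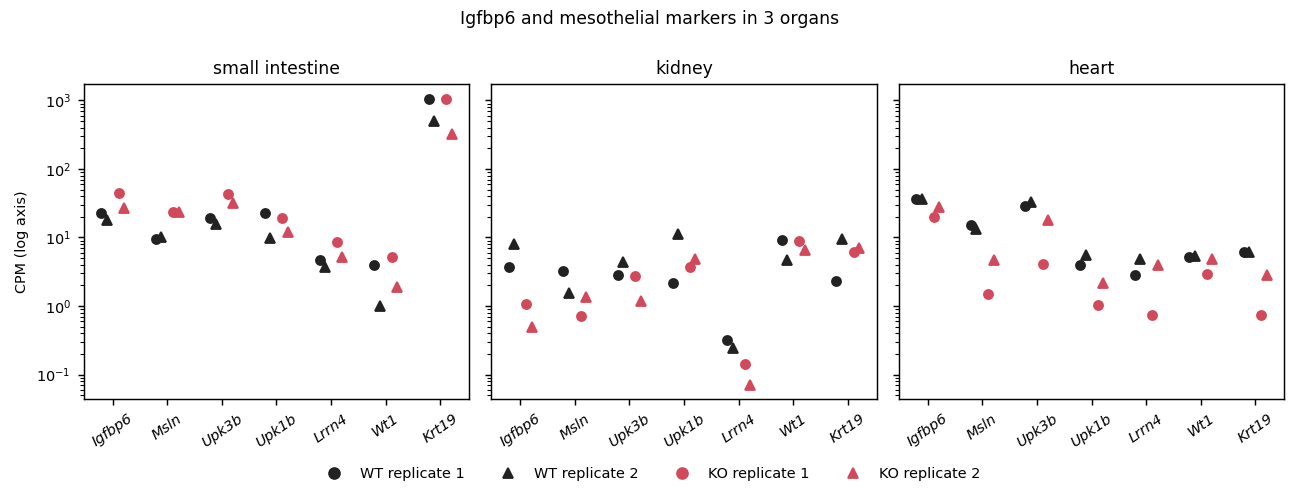
CPM (log axis) of Igfbp6 and of 6 mesothelial markers in the small intestine, kidney, and heart libraries; circles are replicate 1 and triangles replicate 2, black is WT and red is KO. Igfbp6, Msln, and Upk3b are higher in both KO libraries of the small intestine and lower in both of the kidney and heart, whereas Upk1b, Wt1, and Krt19 overlap between genotypes in the small intestine and kidney.

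Of the other Igf pathway genes, 8 to 10 of the 11 listed were tested in each organ, and none was called in either direction. All 8 tested in the small intestine had log2 fold changes above 0 (median 0.62), and their sums overlapped, at 95.1 and 136 CPM in WT and 135 and 226 CPM in KO. In the same libraries all 7 tested fibroblast genes (median 0.84) and all 6 smooth muscle genes (median 2.26) had values above 0, and their part in the Igf values was not tested. The genes lower in KO numbered 7 of 10 in the liver and 8 of 9 in the spleen, both with a median of -0.16. In the spleen all 8 hepatocyte genes had values below 0 as well (median -3.46), and their part in the Igf values was not tested. In the heart 5 of 9 had values above 0 and 4 below, with a median of 0.07. Of the 10 tested in the kidney, 6 had values above 0 (median 0.14), and the values ranged from -0.63 for Igfbp2 to 1.21 for Igfals (unadjusted p = 0.0402, adjusted p = 1 by edgeR).

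Csf1r was marked in all 5 organs, and its log2 fold changes were 0.16 in the heart, 0.74 in the kidney, 0.04 in the spleen, -0.08 in the liver, and 0.33 in the small intestine. In the kidney it was at 27.5 and 19.1 CPM in WT and at 39.7 and 39.9 CPM in KO, without overlap (95% interval -0.14 to 1.62, unadjusted p = 0.0827, adjusted p = 1 by edgeR). Of the 11 macrophage markers, 8 were tested there, 7 had values above 0, none was called, and the median log2 fold change was 0.16. Genotypes did not overlap for Cd68 (log2 fold change 0.33) and Cd163 (-1.55). Their sum was 48.9 and 136 CPM in WT kidney and 91.6 and 121 CPM in KO kidney, and Adgre1 was at 3.54 and 9.81 CPM in WT and 4.82 and 8.77 CPM in KO. All 9 listed genes of the Csf1 pathway were tested in each organ and none was called, with medians between -0.14 (small intestine and spleen) and 0.2 (kidney).

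Gpc3 in the small intestine, its marked organ, was at 5.87 and 7.54 CPM in WT and at 10.8 and 13 CPM in KO. The groups did not overlap, with a log2 fold change of 0.79 (95% interval -0.27 to 1.86, adjusted p = 1 by edgeR). Smooth muscle genes were higher in the same libraries, with a sum over 6 genes of 296 and 466 CPM in WT and 2520 and 1410 CPM in KO and a median log2 fold change of 2.26, and fibroblast genes had a median of 0.84. None of these was called, and their part in the Gpc3 and Igfbp6 values was not tested. In the heart Gpc3 was at 9.39 and 20.3 CPM in WT and at 5.92 and 10.8 CPM in KO, which overlap, with KO lower within each replicate number (log2 fold change -0.84, 95% interval -1.96 to 0.28).

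Corin in the heart, its marked organ, was at 199 and 204 CPM in WT and at 255 and 315 CPM in KO. Both KO libraries were higher, with a log2 fold change of 0.48 (95% interval -0.17 to 1.12, unadjusted p = 0.122, adjusted p = 1 by edgeR). Atrial genes had values in the other direction in the same libraries. Their sum over 5 genes was 849 and 1490 CPM in WT and 81.1 and 530 CPM in KO, and all 5 had values below 0 (median log2 fold change -2.09). Nppa, an atrial gene and the substrate of Corin, was at 251 and 353 CPM in WT and at 62.2 and 148 CPM in KO, a log2 fold change of -1.54 (unadjusted p = 0.0108, adjusted p = 1). Nppb had a log2 fold change of 0.03. The summed CPM of airway and lung genes was also lower in KO heart (37.7 and 54.9 CPM in WT, 8.77 and 29.3 CPM in KO). Of these genes, Sftpa1 and Sftpb overlapped between genotypes, and Scgb1a1 and Sftpc did not. No atrial or lung gene tested was called, and the part of either list in the Corin value was not tested.

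Ephx2 had log2 fold changes of -0.04 in the heart, -0.13 in the kidney, and -0.17 in the liver. The value in the small intestine, marked as well, was 0.53 with an interval of -4.69 to 5.74, the widest of all. This fit does not match the replicates by segment. KO was higher than WT in replicate 1 (71.2 against 34.8 CPM) and in replicate 2 (1500 against 1040 CPM). In the spleen the log2 fold change was -0.6 (-1.54 to 0.34, adjusted p = 1 by edgeR), and it was 0.01 without spleen WT replicate 2, the library with liver transcripts. All 8 tested genes of epoxide metabolism had log2 fold changes below 0 in the spleen (median -0.38), as had all 6 tested in the kidney (median -0.41). None was called in either organ, and the sums in the kidney overlapped (1370 and 3080 CPM in WT, 1870 and 2110 CPM in KO). In the spleen they went down to -3.58 for Cyp2c50 and -3.51 for Cyp2c29, both at 0 counts in WT replicate 1. All 8 hepatocyte genes had values below 0 there too (median -3.46), with sums of 7.34 and 3430 CPM in WT replicates 1 and 2 and 123 and 174 CPM in KO, and their part in the epoxide values was not tested. In the liver 7 of the 10 listed were tested and none was called, with a median of -0.14.

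Il16 in the small intestine, its marked organ, had a log2 fold change of -0.92 (95% interval -2.82 to 0.98, adjusted p = 1 by edgeR). KO replicate 1 was the lowest of the 4 libraries, at 2.72 CPM, and KO replicate 2 lay within the WT range. T-cell markers were lowest in the same library, with sums of 110 and 164 CPM in WT and 15.5 and 122 CPM in KO, and B-cell markers were at 383 and 9.05 CPM in WT and 1.56 and 60.7 CPM in KO. Their part in the Il16 value was not tested. In the spleen, where lymphocyte genes were abundant in all 4 libraries, Il16 had the value of -0.01 given above.

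Afg3l1 had log2 fold changes between 0.02 (spleen) and 0.31 (kidney), above 0 in all 5 organs when each was fitted alone with every library. A fit of all 20 libraries gave -0.01 for the spleen. With 1 library left out, values went down to -0.02 (heart), -0.41 (small intestine), and -0.13 (spleen). Those of the liver and kidney stayed above 0. The KO libraries of Afg3l1 lay above WT in the kidney (42.3 and 36.4 CPM against 32.5 and 29.5 CPM). Tor1b had values between -0.08 (liver) and 0.23 (small intestine). Avl9 had values between -0.32 (kidney) and 0.1 (liver), and its genotypes did not overlap in either of these organs. Corin in the spleen, at 0.843 and 0.339 CPM in WT and 1.18 and 0.918 CPM in KO, did not overlap either (log2 fold change 0.86, 95% interval -0.45 to 2.17). Among partners of Afg3l1, the 9 listed genes of mitochondrial proteolysis and prohibitins had medians between 0.01 (small intestine and heart) and 0.13 (kidney), with none called. None of the 8 torsin and lamin genes or the 10 DENN-domain and Rab genes was called in any organ. Nor was any gene on the list of Gpc3, which holds other glypicans, hedgehog genes, and Cd81 (medians from -0.13 in the liver to 0.33 in the kidney), any gene on the natriuretic peptide list of Corin (-0.09 in the spleen to 0.47 in the small intestine), or any on the list of Il16 (-0.12 in the small intestine to 0.23 in the spleen). Of the marker lists, calls were made in the spleen alone, for 4 of 6 erythroid genes and 1 of 5 adipocyte genes, all higher in KO, against 0.223% of all genes called there in either direction.

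Over all 5 organs together, in a fit of all 20 libraries with organ as a term, the log2 fold change in KO was -0.51 for Igfbp6 (SE 0.36), 0.16 for Afg3l1 (SE 0.11), 0.25 for Csf1r (SE 0.18), -0.17 for Gpc3 (SE 0.25), and 0.59 for Corin (SE 0.37). It was -0.07 for Ephx2 (SE 0.47), 0.07 for Tor1b (SE 0.18), -0.03 for Avl9 (SE 0.11), and -0.13 for Il16 (SE 0.24). The adjusted p was 1 for each by edgeR, and 0.00432% of all genes were called. The narrowest 95% intervals were those of Avl9 (-0.25 to 0.2) and Afg3l1 (-0.06 to 0.39). The interaction of genotype and organ had an adjusted p of 1 for all 9 targets. Among 13 other genes of m5C writing, reading, and removal, none was called in any organ, with medians between -0.12 (kidney) and 0.05 (small intestine and heart).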

How the data were processed

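RNA-seq counts of 20 libraries (5 organs, 2 WT and 2 KO each) were grouped by organ and genotype as labelled. Per the labels, the authors used cutadapt for trimming, HISAT2 2.1.0 for mapping, and featureCounts 2.0.1 for counting. They deposited raw counts per gene without normalization, with the merged exon length of each gene. The labels name mm10. The methods state strand-specific counting of proper pairs, but the stored featureCounts command shows neither option. Between 54.9% and 59.8% of counts from 10 to 50 were even, so mates appear to have been counted separately. Replicates were not pooled. The study calls the replicates biological, and neither it nor the labels say which libraries came from the same animal, so p-values measure the spread between these libraries. With 2 libraries a group, that spread limits the precision. Where counts were low, as for Corin in WT liver (2 and 20 counts), counting error adds to it, and the 2 sources were not separated.

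edgeR 4.0.16 in R 4.3.3 was used (TMM, filterByExpr, robust quasi-likelihood test), on all genes, with Benjamini-Hochberg adjustment. Standard errors were derived from the fold change and the F statistic. Alternatives were DESeq2 1.42.0, other size factors, no filter, other thresholds, a joint fit of every library, a block for the replicate number, limma 3.58.1 on log2(TPM + 0.1) for genes over 1 TPM in a library, and each library left out. The edgeR and DESeq2 fits were tested on simulated counts, where edgeR recovered most large changes in the liver, spleen, and heart, a minority in the kidney, and none in the small intestine. DESeq2 recovered more in the last 2 organs, with many false calls. Levels are CPM or RPKM on TMM scaling of all 20 libraries. Python 3.11.15, numpy 2.4.6, pandas 2.3.3, and matplotlib 3.10.9 were used for the sites and plots.

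Site positions and marks came from the study's site table and no methylation value was used. Sites were placed on the transcripts of the GENCODE annotation of GRCm38. The members and all lists were chosen with earlier results of these data known. Named genes are the targets, Nsun6, the genes of the context and marker lists, and for each target the 3 genes with the highest Pearson r over log2 CPM (prior count 2). Cyp2c44 of the epoxide list had no row under that symbol.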

Additional observations from a re-analysis of the deposited data

Results flagged for a closer look

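For Igfbp6 the genotypes did not overlap in 3 organs, in opposite directions, and no organ's difference was called. Both KO libraries lay above both WT libraries in the small intestine (log2 fold change 0.73) and below both in the kidney (-2.93) and heart (-0.61). Of all genes, 25.2%, 21.5%, and 17.2% did not overlap in these organs in this order. The test of the difference between organs had an unadjusted p of 0.00174 and an adjusted p of 1 by edgeR. Without the filter on low counts the adjusted p was 0.000294 by edgeR and 0.00966 by DESeq2. Avl9 lay higher in both KO libraries of the liver (log2 fold change 0.1) and lower in both of the kidney (-0.32), neither called, with 33.3% of all genes not overlapping in the liver. The same test gave an unadjusted p of 0.842 by edgeR for Avl9.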

How the results depend on the processing

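With 2 libraries a group, the direction of small differences was not fixed. The number of targets called for KO against WT was 0 in the small intestine, liver, spleen, and heart under every alternative, and 0 to 2 in the kidney when 1 library was left out (2 without WT replicate 1 and 2 without WT replicate 2). The number with a KO effect that differed between organs was 0 with the filter on low counts and 1, Igfbp6, without it, both in edgeR and in DESeq2, which was run on the same unfiltered genes. The number of neighbouring organ pairs called was 7 to 11 when 1 library was left out, against 10. Over all such fits 7 of the 10 lost the call at least once and 5 others gained it. In other alternatives, 219 of 220 fold changes of targets kept their direction and their side of the threshold, and Afg3l1 in the spleen was -0.01 in 1 fit of all 20 libraries.

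The labels give the replicate numbers no shared source, but both heart replicate 2 columns share a suffix. The correlation of deviations between libraries of the same number was 0.363 (heart), 0.124 (kidney), 0.006 (spleen), 0.037 (liver), and 0.568 (small intestine), where the number also followed the gut segment in both genotypes. With the replicate block 0 targets were called in every organ, 6 of 44 tests had an unadjusted p under 0.05 and the smallest adjusted p was 0.838, and 9 organ pairs were called. The 6 by edgeR were Ephx2 (0.74, unadjusted p = 0.0435) and Igfbp6 (0.7, 0.034) in the small intestine, Igfbp6 in the kidney (-2.91, 0.00447), and Igfbp6 (-0.63, 0.00891), Gpc3 (-0.82, 0.00702), and Corin (0.47, 0.0207) in the heart. Of all genes, 5.83% passed that level in the blocked fit of the small intestine (2 of 8 targets), 0.553% in the kidney (1 of 9), 2.07% in the heart (3 of 9), 5.26% in the liver (0 of 9), and 4.21% in the spleen (0 of 9).

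Leaving out 1 library turned the direction of 28 of the 44 fold changes, and the cause was not tested beyond the smaller groups. The log2 fold changes that turned then ranged as follows. For Afg3l1 they were -0.02 to 0.18 (heart), -0.41 to 0.39 (small intestine), and -0.13 to 0.14 (spleen). For Avl9 they were -0.25 to 0.22 (heart), -0.12 to 0.16 (small intestine), and -0.28 to 0.35 (spleen). For Corin they were -0.2 to 1.75 (kidney) and -0.9 to 2.8 (liver). For Csf1r they were -0.09 to 0.52 (heart), -0.25 to 0.12 (liver), -0.87 to 0.97 (small intestine), and -0.12 to 0.16 (spleen). For Ephx2 they were -0.28 to 0.26 (heart), -0.4 to 0.24 (kidney), -3.02 to 4.48 (small intestine), and -1.03 to 0.01 (spleen). For Gpc3 they were -0.78 to 0.82 (kidney) and -0.41 to 0.35 (spleen). For Igfbp6 they were -0.97 to 0.03 (liver) and -0.17 to 0.88 (spleen). For Il16 they were -0.31 to 0.24 (heart), -0.24 to 1.14 (kidney), and -0.05 to 0.01 (spleen). For Tor1b they were -0.04 to 0.31 (heart), -0.2 to 0.54 (kidney), -0.28 to 0.14 (liver), -0.65 to 1.19 (small intestine), and -0.35 to 0.2 (spleen). Of those that did not turn, values moved by over 1.5 times for Il16 in the small intestine (-1.95 to -0.33), Igfbp6 in the small intestine (0.35 to 1) and heart (-0.88 to -0.38), Gpc3 in the heart (-1.35 to -0.17) and liver (-0.97 to -0.19), Corin in the spleen (0.38 to 1.62), Afg3l1 in the liver (0.07 to 0.58) and kidney (0.2 to 0.45), and Avl9 in the liver (0.03 to 0.15) and kidney (-0.5 to -0.09). Il16 in the liver, at 0 with all libraries, ranged from -0.41 to 0.6. Over all organs together, fold changes that turned were -0.09 to 0.01 for Avl9, -0.52 to 0.1 for Ephx2, and -0.07 to 0.16 for Tor1b.

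Log2 ratios between neighbouring organs turned for 13 pairs when 1 library was left out. They ranged from -0.05 to 0.41 for Afg3l1 (heart over liver), -0.57 to 3.09 for Corin (liver over small intestine), -0.9 to 2.77 for Corin (spleen over liver), -0.12 to 0.66 for Csf1r (liver over heart), -0.13 to 4.74 for Ephx2 (liver over small intestine), -3.07 to 1.77 for Ephx2 (small intestine over heart), -0.32 to 0.94 for Gpc3 (heart over spleen), -0.08 to 1.73 for Gpc3 (kidney over heart), -0.33 to 0.79 for Igfbp6 (small intestine over spleen), -0.05 to 0.85 for Il16 (small intestine over heart), -0.24 to 0.46 for Tor1b (heart over kidney), -0.45 to 1.06 for Tor1b (liver over small intestine), and -0.63 to 0.82 for Tor1b (small intestine over spleen). In a fit of all 20 libraries with genotype as a term, Igfbp6 was -0.01 (heart over small intestine) and Tor1b -0.07 (liver over small intestine). With limma on log2(TPM + 0.1), which scales to all RNA of a library, the ratio turned for Igfbp6 (small intestine over spleen, -0.45), Afg3l1 (liver over kidney, -0.25, and small intestine over spleen, -0.6), Csf1r (liver over heart, -0.3), Gpc3 (heart over spleen, -0.34), Ephx2 (small intestine over heart, -0.67), Tor1b (liver over small intestine, -0.23, small intestine over spleen, -0.63, and heart over kidney, -0.07), Avl9 (kidney over spleen, -0.07), and Il16 (liver over kidney, -0.02).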
